A study of Mus musculus with 18 samples.

Results

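The mRNAs of 8 inflammatory CC chemokines, Ccl2, Ccl3, Ccl4, Ccl5, Ccl6, Ccl7, Ccl9 and Ccl12, were followed in activated mouse macrophages after transcription had been stopped. They were chosen by gene symbol, out of 19454 genes with a symbol of their own on the array. Each was read by 1 probe set, and all 8 were among the 10258 genes bright enough to be tested. The cells were bone marrow-derived macrophages of C57Bl/6 mice, grown from marrow precursors with the growth factor M-CSF. They were wild type (WT) or TTP-/- (KO), that is, they lacked the RNA-binding protein tristetraprolin (TTP, encoded by Zfp36). All groups, controls included, received lipopolysaccharide (LPS) for 3 h. The medium was then exchanged for one that held actinomycin D, a transcription blocker, together with the p38 inhibitor SB203580, and RNA was taken 0, 45 or 90 min later. The 6 groups of genotype and time held 3 arrays each. Time without transcription and time with the p38 inhibitor were the same variable and cannot be told apart. The labels give the genotype of the mice, not the part of Zfp36 that was deleted, and every group is one kind of cultured macrophage.

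Chemokines are small secreted proteins that steer migrating leukocytes through G protein-coupled receptors, and CC chemokines are named for a pair of adjacent cysteines. Macrophages make several of them within hours of sensing LPS, among them Ccl2, Ccl3, Ccl4 and Ccl5. How long such an mRNA lasts once transcription stops is set partly by AU-rich elements in its tail, which TTP binds to bring in deadenylases, and active p38 restrains TTP. The comparison of WT with KO cells asks which mRNAs need TTP to decay, and the 8 chemokines are compared here with each other.

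The 8 genes lie in 2 groups on mouse chromosome 11 (GRCm38.p6, RefSeq table). Ccl2 (82035577 to 82037452), Ccl7 (82045712 to 82047525) and Ccl12 (82101845 to 82103399), which share the receptor CCR2, form the first group. The gap is 8.26 kb from Ccl2 to Ccl7 and 54.3 kb from Ccl7 to Ccl12. Genes other than the 8 were not placed on this map. Across a gap of 1422 kb follow Ccl5 (83525778 to 83530518), Ccl9 (83572917 to 83578636), Ccl6 (83587886 to 83593087), Ccl3 (83647843 to 83649378) and Ccl4 (83648624 to 83664683). The annotated spans of Ccl3 and Ccl4 overlap by 755 bases. RefSeq start-site sequences were at hand for 4 of the 8, Ccl12, Ccl9, Ccl6 and Ccl3. The 100 bases before each start are shown 5′ to 3′ in the direction of the gene, as a description. Their relation to mRNA stability was not tested. They cover chr11:82101745-82101844 (plus strand) for Ccl12, and on the minus strand chr11:83578637-83578736 for Ccl9, chr11:83593088-83593187 for Ccl6 and chr11:83649379-83649478 for Ccl3. Capitals mark the TATAAA box of Ccl12 and the longest run of bases shared by Ccl9 and Ccl6:
Ccl12: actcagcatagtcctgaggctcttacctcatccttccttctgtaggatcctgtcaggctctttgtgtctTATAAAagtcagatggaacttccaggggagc
Ccl9: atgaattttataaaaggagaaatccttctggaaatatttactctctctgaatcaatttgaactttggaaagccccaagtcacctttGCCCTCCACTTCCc
Ccl6: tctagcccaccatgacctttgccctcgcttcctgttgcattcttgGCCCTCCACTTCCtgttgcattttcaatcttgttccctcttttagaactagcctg
Ccl3: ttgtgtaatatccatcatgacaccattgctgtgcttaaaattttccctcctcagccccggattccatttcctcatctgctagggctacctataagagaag

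The run shared by Ccl9 and Ccl6 is 13 bases long and starts 14 bases before the start site in Ccl9 and 55 before it in Ccl6. Within the 250 bases before the start, no other pair of the 4 shared a run of more than 9 bases. TATAAA was searched on both strands in windows of 300 bases (250 before to 50 after the start). It was present in 13.6% of 32851 such windows. It stood 31 bases before the start of Ccl12, on the gene's strand, and at 3 places in Ccl9, the nearest on the gene's strand 92 bases before the start. It was not in the Ccl6 or Ccl3 window. An NF-kB consensus, present in 8.46% of the windows, matched in Ccl9 only, on the reverse strand 35 bases before the start. These matches describe the letters and not binding.

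The arrays had median intensities of 7.41 to 8.19. Of 10 macrophage markers all 10 were above the signal limit of 3.03 on the log2 scale, with Lyz2 at 12.03, while 0 of 9 neutrophil, 0 of 8 T and NK cell, 0 of 6 mast cell and 0 of 2 erythroid markers were. Above it were also 2 of 8 dendritic cell markers, 1 of 5 B cell markers, 5 of 8 fibroblast markers (the highest, Pdgfrb, at 4.15) and 1 of 4 endothelial markers. The sample numbers in the titles form 2 runs, with replicate 3 of every group in the run of lower numbers and replicates 1 and 2 in the run of higher numbers. The runs were fully separated on the first principal component, which held 29% of the variance. Values with the run as a block, or for the higher run alone, are therefore given beside the results that they change. The lower run has 1 array a group and gives values without a test. Whether replicates came from separate mice or cultures is not stated in the labels, and the p-values therefore reflect only the scatter of these samples, possibly a technical one. Fewer cells of a type and less RNA per cell cannot be told apart. At 0 min the WT arrays read 7.64 ± 0.45 (SD, n = 3) for Zfp36 and the KO arrays 6.61 ± 0.31 (SD, n = 3), and since the probe set may read parts that were not deleted, this checks nothing about the labels.

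In WT macrophages the measured changes ranged from -1.25 for Ccl2 to 0.05 for Ccl5 on the log2 scale. No test between members passed, but these tests used the mean of both genotypes and none was run in WT alone. Ccl2, Ccl3, Ccl4 and Ccl7 were lower at 90 min, with log2 changes from -0.49 to -1.25, while those of Ccl5, Ccl6, Ccl9 and Ccl12 lay between -0.24 and 0.05. In KO cells all 8 stayed within 0.42 of their start. No member passed the threshold in any comparison of the fit without a block (limma, Benjamini-Hochberg over 10258 genes). With the run as a block, Ccl2, Ccl3 and Ccl4 fell in WT.

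**Figure D1:**
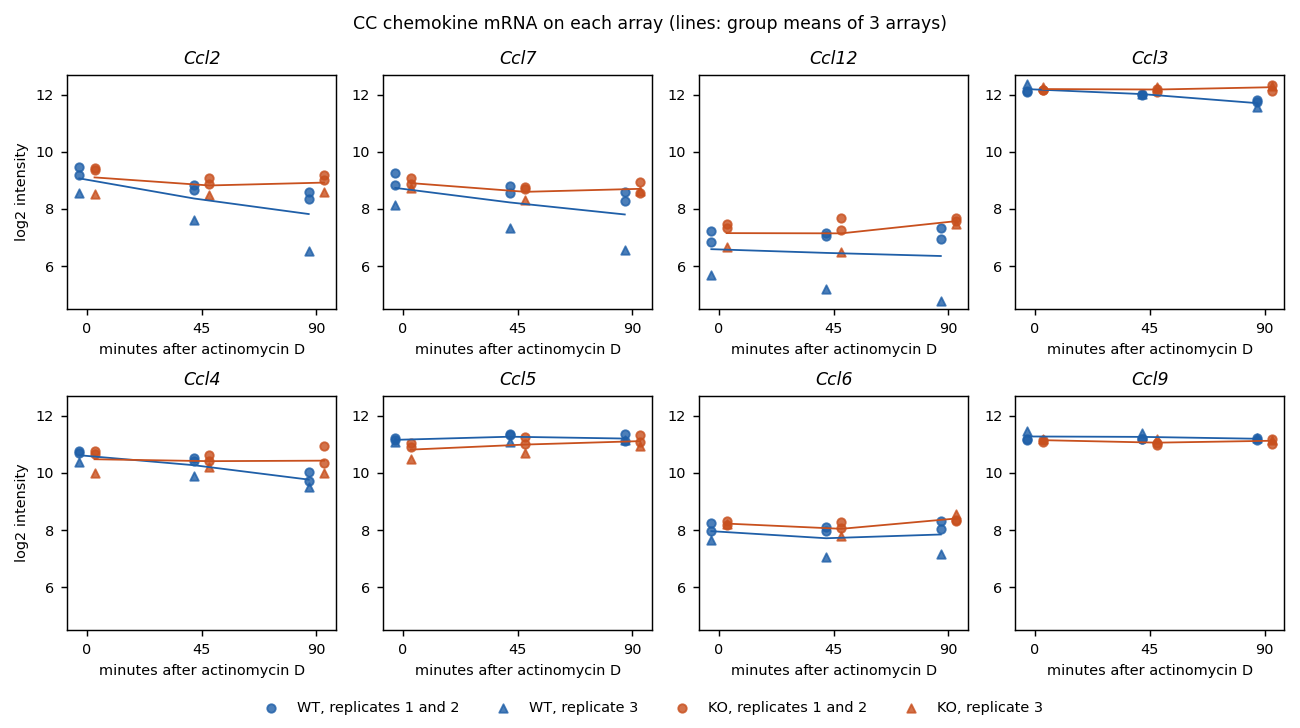
Log2 intensity of the 8 chemokine mRNAs on each of the 18 arrays, against minutes after actinomycin D, for WT (blue) and KO (orange), with lines through the group means and triangles for replicate 3. The WT lines of Ccl2, Ccl7, Ccl3 and Ccl4 slope down and the KO lines stay nearly level, and in each WT group the triangle of Ccl2, Ccl7 and Ccl12 lies below the circles.

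Ccl2 (MCP-1) attracts monocytes through CCR2. In WT its log2 intensity was 9.19, 9.46 and 8.57 in replicates 1, 2 and 3 at 0 min, 8.65, 8.84 and 7.61 at 45 min, and 8.34, 8.59 and 6.53 at 90 min. In KO it was 9.44, 9.36 and 8.51 at 0 min, 8.89, 9.08 and 8.49 at 45 min, and 8.998, 9.17 and 8.60 at 90 min. Every WT replicate was lower at 90 than at 0 min, but the groups overlapped, since replicate 3 at 0 min was just below replicate 2 at 90 min. In KO the 3 groups overlapped. At 90 min every KO array was above every WT array, although the closest 2 differed by little.

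Over 90 min Ccl2 changed by -1.25 ± 0.44 (SE, n = 3) in WT, which left 42.1% of its signal, with a limma adjusted p of 0.271. Replicate 3 lost most, with a change of -2.03 against -0.84 and -0.87 in replicates 1 and 2. The run block gave a limma adjusted p of 0.00355, and the higher run alone gave a change of -0.85 (limma adjusted p 0.00618). Without WT 90 min replicate 3, but with the low replicate 3 kept at 0 min, the change was -0.60. Omission of single arrays gave limma adjusted p-values of 0.107 to 0.634. At 45 min the WT change was -0.70 ± 0.44 (SE), and in KO it was -0.28 at 45 min and -0.18 at 90 min.

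Ccl7 (MCP-3), another ligand of CCR2 and the neighbour of Ccl2, had a like course. In WT it measured 8.84, 9.24 and 8.12 on the log2 scale at 0 min, 8.56, 8.79 and 7.33 at 45 min, and 8.26, 8.60 and 6.56 at 90 min. In KO it measured 9.09, 8.88 and 8.75, then 8.71, 8.76 and 8.33, then 8.56, 8.94 and 8.61. Each WT replicate was lower at every later time, and replicate 3 was lowest throughout, while the KO arrays of the 3 times overlapped. The WT change over 90 min was -0.93 ± 0.43 (SE, n = 3; limma adjusted p 0.517), or 52.5% of the signal left. It was -0.61 within the higher run and -1.56 in replicate 3. Under the run block the limma adjusted p was 0.1, so the threshold was missed there too. Without WT 90 min replicate 3, but with the low replicate 3 kept at 0 min, the change was -0.31.

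Ccl12 (MCP-5), the third CCR2 ligand of that group, had a smaller measured WT change than Ccl2 and Ccl7. In WT its log2 intensity was 6.86, 7.25 and 5.68 at 0 min, 7.05, 7.14 and 5.19 at 45 min, and 6.94, 7.34 and 4.78 at 90 min. In KO it was 7.46, 7.33 and 6.67, then 7.25, 7.70 and 6.49, then 7.59, 7.67 and 7.46. In WT, replicates 1 and 2 ended slightly above their start and replicate 3 ended 0.89 below it. The mean WT change was thus -0.24 ± 0.59 (SE, n = 3; limma adjusted p 0.973), with 0.09 in the higher run and -0.89 in the lower. It was 0.55 without WT 90 min replicate 3, an omission that kept the low replicate 3 at 0 min. Every KO replicate was higher at 90 than at 0 min, by 0.42 ± 0.59 (SE) on average (limma adjusted p 1).

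Ccl3 (MIP-1 alpha) attracts monocytes and other leukocytes. Its WT arrays read 12.14, 12.07 and 12.36 on the log2 scale at 0 min, 12.03, 11.98 and 12.04 at 45 min, and 11.74, 11.81 and 11.55 at 90 min. Its KO arrays read 12.16, 12.16 and 12.25, then 12.09, 12.19 and 12.25, then 12.12, 12.34 and 12.31. The 3 WT times did not overlap and stood in order of time, while in KO they overlapped. Replicate 3 was below the mean of the others in 1 of 6 groups. In WT the change over 90 min was -0.49 ± 0.13 (SE, n = 3), which left 71.3% of the signal, with a limma adjusted p of 0.089. It passed with the run as a block (limma adjusted p 0.0448), and the higher run alone gave -0.33 (limma adjusted p 0.166), against -0.80 in replicate 3. The KO change was 0.06 ± 0.13 (SE).

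Ccl4 (MIP-1 beta), a close relative of Ccl3, read 10.71, 10.77 and 10.37 on the log2 scale in WT at 0 min, 10.53, 10.40 and 9.87 at 45 min, and 10.04, 9.73 and 9.52 at 90 min. In KO it read 10.67, 10.76 and 9.99, then 10.62, 10.41 and 10.19, then 10.34, 10.94 and 10.002. All WT arrays at 90 min were below all at 0 min, and each WT replicate was lower at each later time. In KO the replicates moved in different directions, from -0.33 to 0.18 over 90 min. The WT change was -0.85 ± 0.26 (SE, n = 3), leaving 55.4% of the signal (limma adjusted p 0.155). It was -0.85 in the higher run and also -0.85 in the lower, and with the run as a block the limma adjusted p was 0.0041. The WT change of Ccl4 was thus as large in one run as in the other, whereas for Ccl2, Ccl7 and Ccl3 replicate 3 had the larger change. The KO change was -0.05 ± 0.26 (SE).

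Ccl5 (RANTES) is an LPS-induced chemokine that also attracts T cells. In WT it read 11.16, 11.21 and 11.09 on the log2 scale at 0 min, 11.37, 11.33 and 11.10 at 45 min, and 11.34, 11.11 and 11.15 at 90 min. In KO it read 10.92, 11.05 and 10.47, then 11.02, 11.26 and 10.69, then 11.07, 11.31 and 10.95. The WT arrays of the 3 times overlapped, and each KO replicate was higher at each later time. Over 90 min the change was 0.05 ± 0.18 (SE, n = 3) in WT and 0.30 ± 0.18 (SE, n = 3) in KO, relative to the average mRNA, with limma adjusted p-values of 0.988 and 1. At 0 min all KO arrays were below all WT arrays, by 0.34 ± 0.18 (SE; limma adjusted p 0.683).

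Ccl6 and Ccl9, rodent ligands of CCR1 made by myeloid cells, lie next to each other. Ccl6 read 8.23, 7.98 and 7.67 on the log2 scale in WT at 0 min, 8.12, 7.97 and 7.05 at 45 min, and 8.03, 8.32 and 7.18 at 90 min. In KO it read 8.30, 8.17 and 8.20, then 8.07, 8.27 and 7.79, then 8.34, 8.30 and 8.57. Replicate 3 was the low WT array at each time, and the WT times overlapped. The WT change over 90 min was -0.12 ± 0.28 (SE, n = 3; limma adjusted p 0.973), and the KO change was 0.18 ± 0.28 (SE). Its KO arrays at 90 min were all above those at 0 min, by a narrow margin.

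Ccl9 had the narrowest range of the 8 over all arrays. It read 11.15, 11.18 and 11.48 on the log2 scale in WT at 0 min, 11.18, 11.18 and 11.41 at 45 min, and 11.16, 11.21 and 11.21 at 90 min. In KO it read 11.09, 11.14 and 11.20, then 10.96, 11.03 and 11.18, then 11.02, 11.20 and 11.15. All times overlapped in both genotypes. The changes over 90 min were -0.08 ± 0.13 (SE, n = 3) in WT and -0.02 ± 0.13 (SE) in KO, with limma adjusted p-values of 0.961 and 1.

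**Figure D2:**
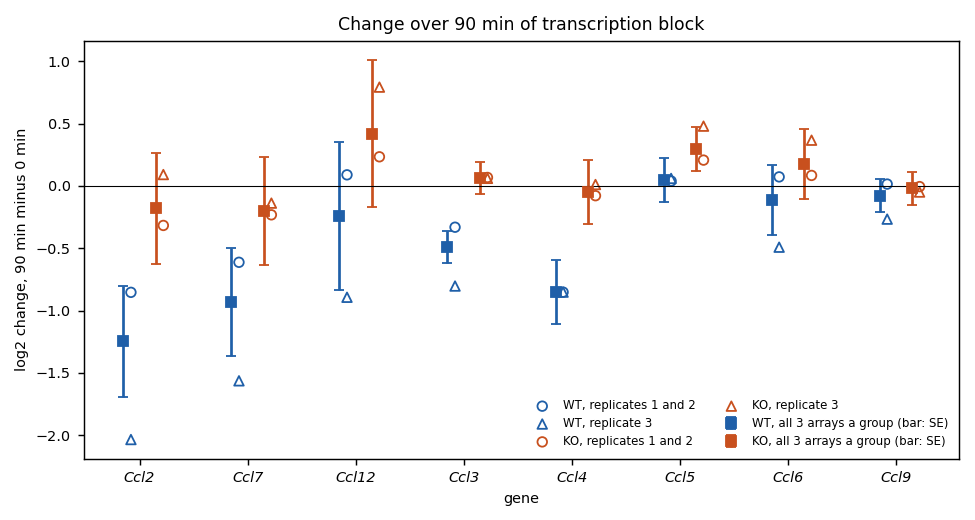
Log2 change of each chemokine from 0 to 90 min after actinomycin D in WT (blue) and KO (orange), with filled squares and SE bars for all 3 arrays a group, circles for replicates 1 and 2, and triangles for replicate 3. Ccl2, Ccl7, Ccl3 and Ccl4 lie below 0 in WT in both sets of replicates. The circles and triangles lie on opposite sides of 0 for Ccl12, Ccl6 and Ccl9 in WT, and for Ccl2 and Ccl4 in KO.

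The counts can be read against all genes tested. For WT at 90 against 0 min, 0 of 8 members passed in limma after Benjamini-Hochberg adjustment, where 1.23% of all genes did. At an unadjusted limma p below 0.05, 4 of 8 were lower (Ccl2, Ccl3, Ccl4 and Ccl7), where 7.25% of all genes were. Under the run block 3 of 8 passed (Ccl2, Ccl3 and Ccl4), where 2.93% of all genes did. Groups did not overlap, with 90 min lower, for 2 of 8 (Ccl3 and Ccl4), where 7.24% of all genes did so. Of the 8 changes 7 were negative, with a median of -0.36, and the median of all genes was -0.02 with 52.7% negative.

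In KO at 90 min 0 of 8 members passed (0.224% of all genes), and 0 of 8 reached an unadjusted limma p below 0.05 (5.36%). Groups did not overlap for 1 of 8, Ccl6, where 11.9% of all genes did so. The members' median change was 0.02, equal to that of all genes at 2 decimals, with 4 positive and 4 negative. At 45 min 0 of 8 passed in WT (0.127% of all genes) and 0 of 8 in KO (0.0487%). At an unadjusted limma p below 0.05 the counts at 45 min were also 0 of 8 in WT (3.89% of all genes) and 0 of 8 in KO (5.26%). In both genotypes 7 of the 8 members were negative at 45 min, Ccl5 being the exception. Of all genes 51.3% were negative in WT and 52.2% in KO. The median of the members was -0.21 in WT and -0.08 in KO, and after quantile normalization 2 were positive in each genotype. Over the mean of both genotypes 0 of 8 passed at 90 min (2.34% of all genes), 3 of 8 were lower at an unadjusted limma p below 0.05 (Ccl2, Ccl3 and Ccl4; 8.33%), and 2 of 8 passed with the run as a block (Ccl2 and Ccl4; 4.62%).

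Half-lives from a straight line over the 3 times give the same data as a rate. Their reference is the mean mRNA of the same array, and 95% intervals come from the limma slope. In WT Ccl2 had a half-life of 72.2 min (interval 42.4 to 243.6), Ccl7 of 96.8 min (50.3 to 1298), Ccl4 of 105.6 min (66.4 to 258.5) and Ccl3 of 184.1 min (120.3 to 392.5). These intervals overlap one another. Under the run block they narrowed to 52.5 to 115.2 min for Ccl2, 77.0 to 168.3 min for Ccl4, 120.9 to 385.4 min for Ccl3 and 60.1 to 249.4 min for Ccl7. Within the higher run the half-life was 105.4 min for Ccl2, 146.9 min for Ccl7, 105.6 min for Ccl4 and 271.4 min for Ccl3.

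The other 4 had slopes whose interval included 0, and only a lower limit of the half-life could be given. In WT it was 63.8 min for Ccl12, 128.9 min for Ccl6, 262 min for Ccl9 and 295.9 min for Ccl5. The limit for Ccl12 is below the half-lives of Ccl2, Ccl7, Ccl4 and Ccl3, and that for Ccl6 is below the half-life of Ccl3. Under the run block the limit for Ccl12 was 103 min, above the half-lives of Ccl2 and Ccl7 but inside both their intervals. In the higher run alone it was 290.8 min. With the run as a block the limits were 154.7 min for Ccl6, 282.3 min for Ccl9 and 386.4 min for Ccl5, and in the higher run alone 323.3, 307.1 and 295.1 min. In KO every member had only a lower limit, from 84.8 min for Ccl7 and 84.97 min for Ccl2 to 462.5 min for Ccl3 and 1719 min for Ccl5. Under the run block the KO slope of Ccl5 lay above 0, at 0.20 log2 per hour (interval 0.01 to 0.38). On the same scale Tnf, a classic TTP target, had a WT half-life of 21.3 min (19.5 to 23.4) and a KO half-life of 202 min (107.7 to 1631). The WT interval of Tnf lies below those of all 4 chemokines that had one.

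To compare members directly, the log2 ratio of 2 members on the same array was taken at 0 and 90 min, and its change was averaged over both genotypes. Time labels were permuted within each genotype, which gives 400 arrangements and a smallest two-sided exact p of 0.005. Of 28 pairs 0 passed after Benjamini-Hochberg adjustment over the pairs, with a smallest adjusted exact p of 0.056, shared by 5 pairs. Ccl2 minus Ccl12 was -0.80 on the log2 scale (exact p 0.005), with -1.01 in WT and -0.60 in KO. Ccl7 minus Ccl12 was -0.66 (exact p 0.005), with -0.69 in WT and -0.62 in KO. These 2 had the smallest p the test can give, and 2 pairs alone at that p cannot pass the adjustment over 28 pairs. The SD of the ratio within groups was 0.25 for both.

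The remaining 3 pairs at the same adjusted p were Ccl2 minus Ccl5 (-0.89), Ccl4 minus Ccl5 (-0.62) and Ccl6 minus Ccl7 (0.60), each with an exact p of 0.01. Ccl4 minus Ccl5 was -0.90 in WT and -0.35 in KO. Ccl2 minus Ccl7 was -0.15 (exact p 0.295), Ccl3 minus Ccl4 was 0.24 (exact p 0.28) and Ccl6 minus Ccl9 was 0.08 (exact p 0.645). These p-values do not show that the members of a pair decay alike. The pairs were tested on the mean of both genotypes, so a pair that differed in WT alone is diluted.

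**Figure D3:**
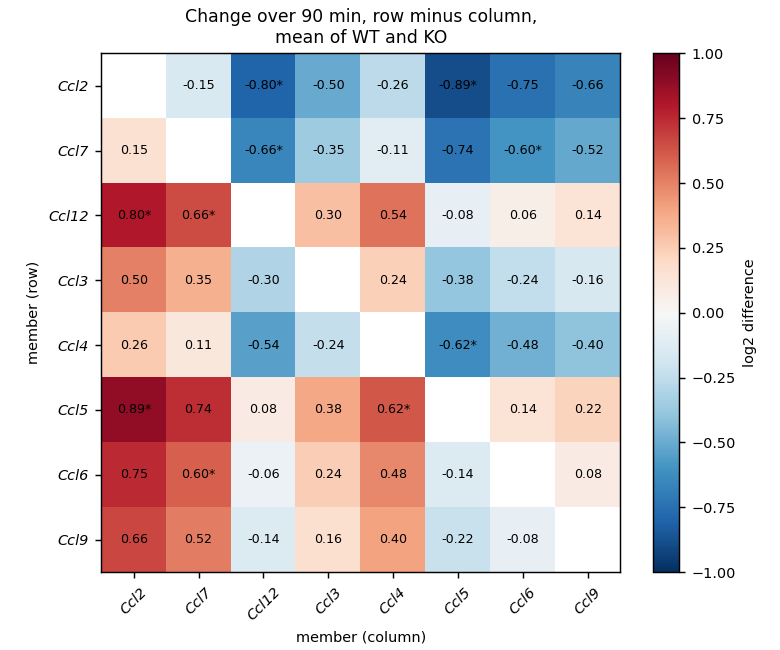
Difference in the log2 change over 90 min between 2 chemokines, row minus column, mean of WT and KO, with red for a smaller loss in the row and blue for a larger one; asterisks mark an exact p of 0.01 or less before adjustment. Ccl2 and Ccl7 are blue against Ccl12, Ccl5, Ccl6 and Ccl9, and no pair passed after adjustment over the 28 pairs.

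The genotypes were compared by the decay difference, the change over 90 min in KO minus that in WT. It was 1.07 ± 0.63 (SE) on the log2 scale for Ccl2, 0.73 ± 0.61 for Ccl7 and 0.66 ± 0.84 for Ccl12. For Ccl3 it was 0.55 ± 0.18 (95% interval 0.17 to 0.94), for Ccl4 0.80 ± 0.36 (0.04 to 1.56) and for Ccl5 0.25 ± 0.25. Ccl6 had 0.29 ± 0.40 and Ccl9 0.06 ± 0.19. All 8 were positive, with a median of 0.61, while 56.4% of all genes were positive with a median of 0.04.

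None passed: 0 of 8 members in limma after adjustment (each adjusted p 0.999), where 0.0195% of all genes passed. At an unadjusted limma p below 0.05, 2 of 8 were higher, Ccl3 (p 0.0078) and Ccl4 (p 0.0398), where 1.73% of all genes were. With the run as a block the lowest limma adjusted p among the members was 0.882. Taken by replicate number, which does not count as pairing here, the difference was 0.40, 0.68 and 2.12 for Ccl2. It was 0.36, 0.44 and 0.86 for Ccl3 and 0.33, 1.22 and 0.86 for Ccl4. Its sign varied between replicates for Ccl5, Ccl6 and Ccl9. For Ccl7 the replicates gave 0.05, 0.71 and 1.42 and for Ccl12 0.05, 0.24 and 1.68, so replicate 3 carried most of both. Without WT 90 min replicate 3 the difference was 0.42 for Ccl2, 0.11 for Ccl7 and -0.13 for Ccl12. That omission kept replicate 3 of the other groups. In the higher run alone, without replicate 3 in any group, the difference was 0.54, 0.38 and 0.14. At 45 min 0 of 8 passed (0.00975% of all genes) and 0 of 8 reached an unadjusted limma p below 0.05 (1.82%); 7 of 8 were positive, the exception being Ccl9 at -0.07. Centred on ribosomal protein genes, where the median of all genes for the 90 min difference moved from 0.04 to -0.18, 7 of 8 members were positive with a median of 0.38, and Ccl9 was at -0.16.

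Before the block, at 0 min, the genotypes were close for Ccl2 (KO minus WT 0.03 ± 0.44, SE) and Ccl3 (0.00 ± 0.13). No member passed there (0 of 8; 0% of all genes passed in limma after adjustment), and 0 of 8 reached an unadjusted limma p below 0.05 (7.57%). Groups did not overlap for 1 of 8, Ccl5, where 10.3% of all genes did so. The differences at 0 min were 0.17 for Ccl7, 0.56 for Ccl12, -0.14 for Ccl4, 0.26 for Ccl6 and -0.13 for Ccl9. Centred on ribosomal protein genes the median of all genes at 0 min was 0.28 higher in KO, and the median of the members was 0.30.

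At 90 min KO exceeded WT by 1.10 ± 0.44 (SE) for Ccl2, 0.90 ± 0.43 for Ccl7, 1.22 ± 0.59 for Ccl12, 0.56 ± 0.13 for Ccl3, 0.66 ± 0.26 for Ccl4 and 0.56 ± 0.28 for Ccl6. Ccl5 (-0.09 ± 0.18) and Ccl9 (-0.07 ± 0.13) were on the other side of 0. No member passed without a block (0 of 8; 0.146% of all genes), and 3 of 8 were higher at an unadjusted limma p below 0.05, Ccl2, Ccl3 and Ccl4 (4.06%). With the run as a block Ccl2 (limma adjusted p 0.0261) and Ccl3 (0.0459) were higher in KO, which is 2 of 8 where 0.877% of all genes passed. With the replicate number as a block, treated as pairing here, Ccl2 passed (limma adjusted p 0.0314) and Ccl3 did not (0.0555). KO arrays were all above WT arrays for 3 of 8, Ccl2, Ccl3 and Ccl12, where 6.47% of all genes did so. In the higher run alone the differences were 0.62 for Ccl2, 0.46 for Ccl3 and 0.49 for Ccl12, with limma adjusted p-values of 0.0996, 0.169 and 0.251.

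Over the mean of the 3 times 0 of 8 passed (1.33% of all genes), and 3 of 8 were higher in KO at an unadjusted limma p below 0.05, Ccl3, Ccl6 and Ccl12 (6.42%). Ccl12 was 0.82 ± 0.34 (SE) higher and Ccl2 0.53 ± 0.26. With the run as a block both passed, Ccl12 with a limma adjusted p of 0.0121 and Ccl2 with 0.0253, which is 2 of 8 where 4.82% of all genes passed. With the replicate block the limma adjusted p was 0.0156 for Ccl12 and 0.0287 for Ccl2. In the higher run the difference was 0.41 for Ccl12 and 0.31 for Ccl2, and in replicate 3 it was 1.65 and 0.96. Ccl5 was 0.24 ± 0.10 (SE) lower in KO (limma adjusted p 0.364).

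**Figure D4:**
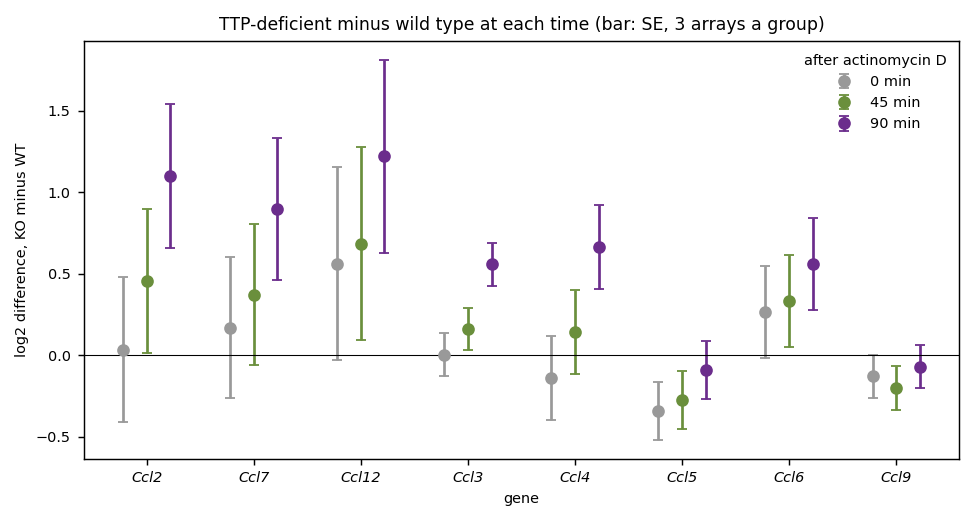
KO minus WT log2 intensity of each chemokine at 0, 45 and 90 min after actinomycin D, with SE bars for 3 arrays a group. For every gene the 90 min difference is the highest of the 3, and Ccl5 and Ccl9 lie below 0 at each time.

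The position of replicate 3 differed between members. Against the mean of replicates 1 and 2 it was lower in 6 of 6 groups for Ccl2, Ccl4, Ccl5, Ccl7 and Ccl12, in 5 for Ccl6, in 1 for Ccl3 and in 0 for Ccl9. The gap was widest for Ccl12, from -2.36 in WT at 90 min to -0.17 in KO at 90 min. For Ccl2 it ran from -1.93 to -0.49 and for Ccl7 from -1.87 to -0.14, both widest in WT at 90 min. The part of the run in the results for these 3 genes was not tested beyond the values with and without it.

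The genes whose log2 intensity followed each member most closely over the 18 arrays were found by Pearson correlation, given as a description, since arrays of one group share genotype, time and run. Ccl3 was followed by Cxcl1 (r = 0.909, Spearman 0.8) and Cxcl2 (r = 0.899, Spearman 0.798), and with run means removed r was 0.913 and 0.935. Ccl2 went with Cdkn2d (r = 0.906) and Tmem171 (r = 0.888), and Ccl7 with Tmem171 (r = 0.879) and Ch25h (r = 0.87), so the adjacent Ccl2 and Ccl7 shared 1 of their 2 genes. Ccl4 went with Tent4a (r = 0.917) and Stambpl1 (r = 0.912), Ccl5 with Tbrg1 (r = 0.908) and Smpdl3b (r = 0.874), and Ccl6 with B3galnt1 (r = 0.86) and Ufd1 (r = 0.839). Ccl9 went with Ppia (r = 0.88) and Yeats4 (r = 0.877). Ccl12 went with Nemp1 (r = 0.886) and Slfn4 (r = 0.884), and with run means removed these were 0.743 and 0.746.

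Around the members, the rest of the chemokine system was measured unevenly. The lists below can be read against all 10258 genes. After limma adjustment 1.23% passed in WT at 90 min, 0.224% in KO, 0.0195% for the decay difference and 1.33% for the mean genotype difference. At an unadjusted limma p below 0.05, in either direction, 967, 550, 274 and 1190 genes did so, in the same order. Of 13 CC receptors and decoys on the array 9 were below the signal limit, among them Ccr1 at a mean log2 of 2.00 and Ccr2 at 2.24, receptors of the members. Of the 4 tested receptors 0 passed in WT or KO at 90 min, the decay difference or the mean genotype difference, and at an unadjusted limma p below 0.05 the counts were 1 in WT, 1 in KO, 0 and 0. Ccr10 had the largest WT change at 90 min, 0.48 ± 0.15 (SE, limma adjusted p 0.162), but its mean log2 of 2.98 was just below the signal limit. Of 10 other CC chemokines 4 were tested, and 0 changed over 90 min in either genotype (0 also at an unadjusted limma p below 0.05). Ccl22, a ligand of CCR4, was lower in KO over the 3 times by 2.14 on the log2 scale (-2.14 ± 0.25, SE; limma adjusted p 0.000294), with group means of 7.74, 7.70 and 7.48 in WT and 5.48, 5.602 and 5.43 in KO. None of the 8 members was lower in KO by more than 0.24 over the 3 times.

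Among 11 tested CXC, CX3C and XC chemokines 2 fell in WT over 90 min and 0 rose. They were the neutrophil attractants Cxcl1 (-2.82 ± 0.35, SE; limma adjusted p 0.000243) and Cxcl2 (-1.98 ± 0.23; 0.000178), both larger changes than that of any member. In KO 0 of 11 changed (0 also at an unadjusted limma p below 0.05). The decay difference passed for Cxcl2 alone of the 11 (2.09 ± 0.33, SE; limma adjusted p 0.0375). The median of the 11 in WT was -0.10.

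Of 15 tested inducers of chemokine genes 3 fell in WT over 90 min and 0 rose, with a median of -0.55. At an unadjusted limma p below 0.05, 8 of 15 changed, where 967 of all 10258 genes did. The transcription factor mRNAs Irf1 (-2.56 ± 0.57, SE; limma adjusted p 0.0304) and Junb (-2.43 ± 0.38; 0.00182) had the larger changes of the 3 that fell. In KO 1 of 15 fell, Cebpd (-1.50 ± 0.24, SE; limma adjusted p 0.011), with 6 of 15 at an unadjusted limma p below 0.05 (5.36% of all genes). For the decay difference 0 of 15 passed (0 also at an unadjusted limma p below 0.05). Of 15 genes of chemokine receptor signalling 1 fell in WT, Rgs1 (-2.18 ± 0.50, SE; limma adjusted p 0.0373), a regulator of G protein signalling, and 0 in KO (1 at an unadjusted limma p below 0.05). Of 11 heparan sulfate and matrix partners 0 changed over 90 min (2 in WT and 0 in KO at an unadjusted limma p below 0.05), and Mmp14, a membrane-bound metalloproteinase, was 0.84 ± 0.11 (SE) higher in KO over the 3 times (limma adjusted p 0.000766). Of 12 tested TTP family members and decay factors, Zfp36 fell in WT (-3.52 ± 0.32, SE; limma adjusted p 1.15e-05) and in KO (-1.61 ± 0.32; 0.0475), and Cnot8, a deadenylase subunit, was higher in KO over the 3 times (0.40 ± 0.08, SE; limma adjusted p 0.0169).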

How the data were processed

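Total RNA of 18 samples was measured with whole-transcript Affymetrix arrays for mouse (Gene ST), 1 array each. Per the submitters' processing notes, the authors ran RMA in Affymetrix Expression Console; its version is not given in the sources used here. Values were deposited as intensities, taken as linear from their range, and their log2 was used with no offset. RMA brings arrays to a shared distribution, so a change is measured against the array's mean mRNA, and a loss common to all mRNAs does not show. The highest-signal probe set was kept per symbol; 10258 of 19454 genes had a group mean of at least 3.03 on the log2 scale (intensity 8.16) and were tested. The limma model (3.58.1, R 4.3.3) had 6 group means and no block, with Benjamini-Hochberg adjustment over all tested genes at 0.05. The procedure was tested on simulated data. KO against WT at 45 and 90 min, and the run block for half-lives, were added after the values were seen. All members are named; from each list, up to 2 genes past the threshold, or otherwise the largest change, are named, and for each member the 2 most correlated genes. The members and lists were chosen with earlier results of these data known. The number of arrays limits the precision.

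Replicate numbers are shared between groups. Deviations of same-numbered arrays from their group means correlated at 0.413 to 0.694 for KO at 90 against 0 min, 0.333 to 0.55 for WT at 45 min, 0.321 to 0.677 for KO at 45 min, 0.156 to 0.369 for KO against WT at 0 min, 0.197 to 0.527 at 45 min and 0.183 to 0.651 at 90 min. There the numbers were treated as pairing, but not for WT at 90 min (-0.287 to 0.424) or for the comparisons built on it. Replicate 3 is the lower run in every group, so this check cannot tell a shared number from a shared run. Alternatives covered blocks, scaling, filters, the offset, array weights and omission of each array.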

Additional observations from a re-analysis of the deposited data

How the results depend on the processing

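For WT at 90 against 0 min the count of members past the threshold was 0. It became 2 with the replicate number as a block (Ccl2 and Ccl4; 2.89% of all genes passed), 3 with the run block, 2 in the higher run alone (Ccl2 and Ccl4; 13.4%), 1 with an offset of 16 (Ccl3; 1.04%) and 1 with a trended robust variance (Ccl3; 1.29%). With array weights it became 4 (Ccl2, Ccl3, Ccl4 and Ccl7), where 38.9% of all genes passed; the estimation of these weights stopped before it converged, so their counts are given as values only. For the mean of both genotypes it became 2 with the replicate block (4.37%) and with the run block, 1 in the higher run (Ccl2; 5.34%) and 3 with array weights (15.3%). Array weights also gave 1 for WT at 45 min (Ccl2; 20.6%) and 1 for the decay difference at 90 min (Ccl3; 9.73%). For KO against WT over the 3 times the count became 2 with the replicate block (4.64%) and with the run block, 2 with array weights (Ccl3 and Ccl5; 23.4%), 1 when centred on ribosomal protein genes (6.3%) and 1 with the offset (1.49%; both Ccl3), and 0 to 1 with single arrays left out, the 1 being Ccl3 without WT 0 min replicate 3 (4.86%). The causes were not tested. For KO against WT at 90 min Ccl2 passed with the replicate block (limma adjusted p 0.0314), and the share of all genes there is not given. In the planned comparisons between groups not named here, the replicate block left the count at 0. For WT at 90 min and the comparisons built on it the replicate numbers were not treated as pairing. Of the 28 pairs, 3 passed after quantile normalization, and 0 to 4 with single arrays left out, the 4 without WT 90 min replicate 2 or without KO 90 min replicate 2.

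The directions that turned belonged to values that had not passed. In WT at 90 min, the higher run alone gave 0.072 for Ccl6, 0.0143 for Ccl9 and 0.0884 for Ccl12, centring on ribosomal protein genes gave 0.0147 for Ccl6 and 0.0512 for Ccl9, and array weights gave 0.0046 for Ccl6. Ribosomal centring gave -0.0262 for Ccl3 in KO at 90 min, -0.163 for the decay difference of Ccl9 and 0.0306 for Ccl9 over the 3 times. The higher run gave 0.0042 for Ccl9 over both genotypes, -0.0202 for its decay difference, and WT slopes of 0.048 (Ccl6), 0.0095 (Ccl9) and 0.059 (Ccl12) log2 per hour. With single arrays left out the WT change at 90 min ran from -0.0256 to 0.0911 for Ccl5, from -0.356 to 0.219 for Ccl6, from -0.139 to 0.0245 for Ccl9 and from -0.732 to 0.546 for Ccl12. The KO change ran from -0.304 to 0.163 for Ccl4 and from -0.0581 to 0.0303 for Ccl9. Over both genotypes it ran from -0.089 to 0.198 for Ccl6, from -0.0796 to 0.00198 for Ccl9 and from -0.156 to 0.483 for Ccl12. The decay difference ran from -0.0407 to 0.534 for Ccl6, from -0.0449 to 0.118 for Ccl9 and from -0.127 to 1.15 for Ccl12.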
